A study of Mus musculus with 8 samples.

Results

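The genes described here are 7 genes of the mammary luminal progenitor and of milk and mucosal defence: Elf5, Kit, Aldh1a3, Tspan8, Cd14, Lcn2 and Ltf. They were found by Ensembl identifier among the 56748 rows of a table of read counts per gene. All 7 had a row and passed the filter on low counts. The libraries were made from cells that anti-F4/80 magnetic beads pulled out of digested inguinal fat pads of wild-type (WT) female mice. In the Aldara group (4 libraries) the shaved skin of the back had received about 62.5 mg of a cream with 5% imiquimod, an agonist of Toll-like receptor 7. In the Vehicle group (4 libraries) it had received a control cream, Boots Aqueous Cream with 10% Vaseline Lanette Cream. Both creams went on for 3 days in a row, and the mice were killed 24 h later. Each library pooled cells of 6 fat pads, about 30000 cells, from preparations with over 90% of cells positive for F4/80 and CD64. The sources used here give neither age nor strain. They also do not say that each library came from animals of its own, and p-values therefore measure only the spread among these pools, which may be technical.

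The inguinal fat pad of a female mouse holds a mammary gland, a tree of ducts embedded in fat. The inner, luminal layer of a duct has hormone-sensing cells, which carry the receptors for oestrogen and progesterone, and luminal progenitors, which give rise to the milk-secreting alveolar cells. Luminal progenitors are known for the transcription factor Elf5, the receptor tyrosine kinase Kit, the retinaldehyde dehydrogenase Aldh1a3 and the surface proteins Cd14 and Tspan8. The gland also secretes defence proteins into its ducts and into milk, among them lipocalin 2 (Lcn2), which binds the siderophores with which bacteria take up iron, and lactotransferrin (Ltf), which binds iron itself. Several of these genes are also used by other cells. Cd14 is a lipopolysaccharide co-receptor of monocytes and macrophages, Lcn2 and Ltf are granule proteins of neutrophils, and Kit is the stem cell factor receptor of mast cells and melanocytes.

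Lcn2 and Cd14 were higher after Aldara, and the other 5 genes did not pass the test. Levels are CPM, counts relative to the size of the library after TMM scaling, and the test is edgeR's quasi-likelihood test with Benjamini-Hochberg adjustment over 16780 tested genes and a threshold of 0.05. Of all tested genes, 6.98% were called higher in Aldara, 3.86% lower and 10.8% either way. The groups did not overlap for 17.8% of tested genes, with Aldara higher for 9.97% and lower for 7.79%. By edgeR, DESeq2 and limma voom alike, 2 of the 7 genes were called higher and 0 lower. DESeq2 called 1471 of 18158 genes higher and 1154 lower, and limma voom called 1031 and 552 of 16780. At an unadjusted p under 0.05 the counts among the 7 genes were 3 and 0. The share of all tested genes at that unadjusted threshold was not computed, and the shares above do not apply to it. This also holds for the unadjusted counts of the lists below. The median log2 fold change (Aldara minus Vehicle) was 0.22 over the 7 genes and 0.0058 over all tested genes. These directions hold relative to all genes: when the libraries were instead scaled to a list of 12 macrophage markers, all 7 log2 fold changes were negative, 4 genes were called lower (Elf5, Kit, Aldh1a3 and Tspan8) and 0 higher, and the median of all tested genes was -1.42.

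**Figure D1:**
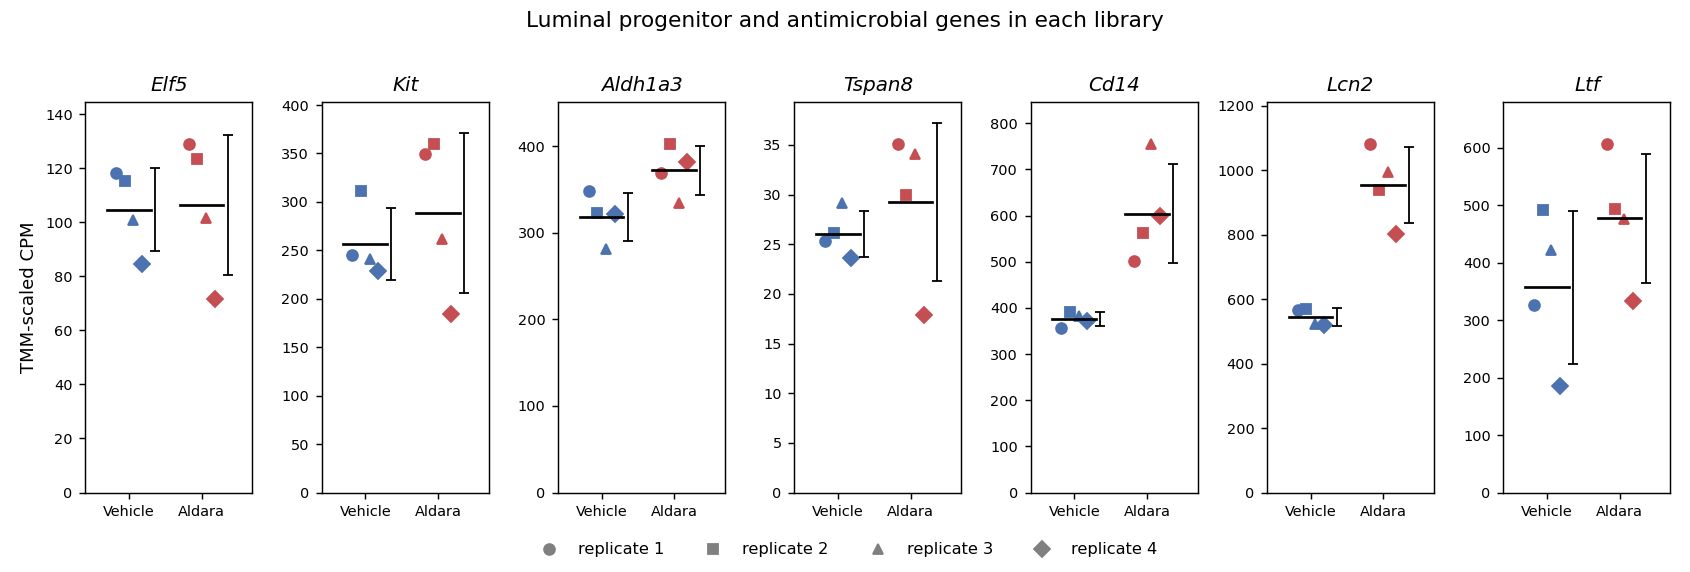
Level of each of the 7 genes (vertical axis, TMM-scaled CPM, starting at 0) in the 4 Vehicle and 4 Aldara libraries. Marker shapes give the replicate number, horizontal lines the group mean and vertical bars 1 SD; all 4 Aldara libraries lie above all 4 Vehicle libraries for Cd14 and Lcn2 on this scale, a direction that turns when libraries are scaled to macrophage markers.

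The cells were collected as macrophages, and the libraries held transcripts of both macrophages and mammary epithelium. Epcam, an adhesion molecule of epithelial cells, ranged from 1410 to 1520 CPM in Vehicle and from 1240 to 1480 CPM in Aldara, whereas Adgre1, which encodes F4/80, ranged from 53.4 to 96.8 CPM and from 429 to 1410 CPM. Fcgr1, which encodes CD64, lay between 17.9 and 22.2 CPM in Vehicle and between 13.1 and 37.8 CPM in Aldara. The summed level of 12 epithelial genes was 13930 to 19600 CPM in Vehicle and 13520 to 17290 CPM in Aldara, with 0 of 12 called by edgeR, 2 lower at an unadjusted p under 0.05, 2 lower by DESeq2 and 0 by limma voom. With the replicate number as a block, 1 was called higher and 2 lower. The summed level of 12 macrophage markers was 1478 to 3054 CPM in Vehicle and 3496 to 9606 CPM in Aldara, with 7 of 12 called higher. That count was 11 by DESeq2, with the replicate number as a block or without Aldara replicate 1. It was 3 under scaling to the epithelial genes, with no filter on low counts or without Aldara replicate 4, and 4 when 1 of Vehicle replicates 1, 2 and 4 or Aldara replicate 3 was left out. In such mixed bulk libraries, fewer cells of a type and less RNA per cell cannot be told apart. Total counts were 21874780 to 34471508 per library in Vehicle and 19537607 to 24340674 in Aldara, a difference within the spread (n = 4 each, two-sided exact permutation test, p = 0.286).

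Promoter sequence is shown for Lcn2, which rose relative to all genes but not relative to the macrophage markers, and for Ltf and Elf5, which did not pass the test, so that a defence gene that passed can be set beside one that did not pass and beside the transcription factor of the lineage. No window of Aldh1a3 or Cd14 was examined, which does not mean that these genes lack an annotated start. RefSeq start-site windows (GRCm38.p6), selected by symbol, were used for the other 5 of the 7 genes. Each runs 5′ to 3′ on the strand of the gene from 250 bases before the start and stops where an annotated untranslated region begins. Capitals mark matches to a kB motif (GGG, any 5 bases, CC), an ETS motif (AGGAAG) and a C/EBP motif (TTGNNNAAT) on either strand.
Lcn2, chr2:32387798-32387989, minus strand: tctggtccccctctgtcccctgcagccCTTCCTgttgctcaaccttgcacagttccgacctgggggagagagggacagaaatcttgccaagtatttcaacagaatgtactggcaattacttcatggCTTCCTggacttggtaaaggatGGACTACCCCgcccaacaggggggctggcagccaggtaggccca
Ltf, chr9:111019042-111019270, plus strand: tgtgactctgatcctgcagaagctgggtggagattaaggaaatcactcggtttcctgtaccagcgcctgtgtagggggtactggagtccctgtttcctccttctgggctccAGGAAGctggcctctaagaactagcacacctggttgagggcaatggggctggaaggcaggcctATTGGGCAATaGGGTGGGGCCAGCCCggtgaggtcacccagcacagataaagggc
Elf5, chr2:103423818-103424061, plus strand: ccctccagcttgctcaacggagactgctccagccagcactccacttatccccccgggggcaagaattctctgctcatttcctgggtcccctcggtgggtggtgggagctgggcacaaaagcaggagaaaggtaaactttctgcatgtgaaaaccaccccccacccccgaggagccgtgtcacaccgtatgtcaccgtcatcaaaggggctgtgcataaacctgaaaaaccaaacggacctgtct
In the Lcn2 window the kB match began 102 bases before the start site, and ETS matches began 223 and 124 bases before it. A further ETS match began 21 bases before the start site, in the part that is not printed. Part of this window, 139 bases, is a coding exon of another annotated Lcn2 transcript. In the Ltf window, 3 overlapping kB matches began 65, 61 and 60 bases before the start, next to 2 overlapping C/EBP matches, 1 on each strand, and an ETS match began 139 bases before it. The printed Elf5 window held no match to any of these motifs, nor to the STAT motif TTCNNNGAA, which was absent from the windows of all 5 genes. Elf5 has a further RefSeq start, whose window lies in an annotated exon and is not printed. That window did hold a kB match, on the opposite strand, which began 69 bases before its start. Among 32851 RefSeq windows of 250 bases before a start, 45.8% held the kB motif, 29.5% the ETS motif, 10.4% the C/EBP motif and 7.02% the STAT motif. The matches describe the letters in these windows and show neither binding nor its absence.

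Elf5 is an ETS-family transcription factor that acts downstream of prolactin in alveolar differentiation (ENSMUSG00000027186, chr2:103411688-103450989 in mm10, plus strand, 9 merged exons). Its level in Vehicle replicates 1 to 4 was 118, 115, 101 and 84.4 CPM, and in Aldara replicates 1 to 4 it was 129, 123, 102 and 71.6 CPM. The 2 groups overlapped across most of their range, and replicate 4 was the lowest library of each. The means were 105 ± 15.4 CPM and 106 ± 26.0 CPM (SD, n = 4 each), and the log2 fold change was 0.02 (SE 0.18, edgeR adjusted p = 0.952), with a 95% interval from -0.37 to 0.42. The sign of so small a difference changed with the scaling and with the libraries kept.

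Kit is the receptor for stem cell factor (ENSMUSG00000005672, chr5:75574916-75656722, plus strand, 21 merged exons). Its level was 245, 312, 241 and 229 CPM in Vehicle replicates 1 to 4 and 349.5, 359.8, 262 and 184 CPM in Aldara replicates 1 to 4. Aldara replicates 1 and 2 lay above every Vehicle library and Aldara replicate 4 lay below every one. The log2 fold change was 0.17 (SE 0.20, 95% interval -0.27 to 0.61, edgeR adjusted p = 0.655). The spread within Aldara, a coefficient of variation of 28.6%, was wider than that within Vehicle, 14.5%. Of the markers of other cells that use Kit, Ms4a2 and Tyr had 0 counts in all 8 libraries, and Cpa3 had 19 counts in Vehicle and 22 in Aldara, summed over 4 libraries each. Others were higher, with 305 and 192 counts for Gata2 and 282 and 185 for the melanocyte gene Pmel. Hdc, which makes histamine, ranged from 4.89 to 8.38 CPM in Vehicle libraries and from 9.72 to 15.7 CPM in Aldara libraries, and of the 2 tested mast cell markers it was the one called higher (log2 0.93, edgeR adjusted p = 0.0135), without overlap between the groups. The part of such cells in the level of Kit was not tested. Summed, the 9 mast cell markers ranged from 8.08 to 12.6 CPM in Vehicle libraries and from 12.3 to 18.8 CPM in Aldara libraries, and the 5 melanocyte markers to 1.92 to 3.18 and 1.79 to 2.39 CPM.

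Aldh1a3 makes retinoic acid from retinaldehyde (ENSMUSG00000015134, chr7:66390890-66427517, minus strand, 15 merged exons). Its level was 348, 323, 281 and 322 CPM across Vehicle replicates 1 to 4, against 369, 402, 334 and 382 CPM across Aldara replicates 1 to 4. Of the 16 pairings of an Aldara with a Vehicle library, 15 had the Aldara library higher, and Vehicle replicate 1 overlapped Aldara replicate 3. This was the gene with the narrowest spread within Aldara, 7.73%. The log2 fold change was 0.22 (SE 0.10, 95% interval 0.0041 to 0.44). The unadjusted p of edgeR's test was 0.0465 and the adjusted p was 0.183, so the difference did not pass.

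Tspan8 is a tetraspanin, a membrane protein that organises other membrane proteins (ENSMUSG00000034127, chr10:115816832-115849893, plus strand, 9 merged exons). Its level was 25.4, 26.1, 29.1 and 23.6 CPM across Vehicle replicates 1 to 4, against 35.1, 29.9, 34.1 and 17.8 CPM across Aldara replicates 1 to 4. Aldara replicates 1 to 3 lay above all Vehicle libraries, and Aldara replicate 4 lay below all of them. The log2 fold change was 0.17 (SE 0.18, 95% interval -0.24 to 0.58, edgeR adjusted p = 0.627). It rested on the fewest reads of the 7 genes, 335 to 1032 counts per library. An antisense gene, 4930422I22Rik, shares 4 exonic bases with it and had 1 to 11 counts.

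Cd14 encodes a GPI-anchored co-receptor that hands lipopolysaccharide to the Tlr4 complex (ENSMUSG00000051439, chr18:36725067-36726798, minus strand, 1 merged exon). Its level was 356, 390.4, 383 and 371 CPM across Vehicle replicates 1 to 4, against 502, 562, 755 and 598 CPM across Aldara replicates 1 to 4. The groups did not overlap, and the lowest Aldara library stood well clear of a Vehicle group that spanned only 1.1-fold from lowest to highest. Such a separation with Aldara higher was found for 9.97% of tested genes. Cd14 rose by 0.69 on the log2 scale (SE 0.13, 95% interval 0.41 to 0.96, edgeR adjusted p = 0.00738), from 375 ± 15.1 to 604 ± 108 CPM (SD, n = 4 each), but relative to the macrophage markers it was lower by a log2 difference of -0.82 (adjusted p = 0.0713). Without Aldara replicate 3, its highest library, the log2 fold change was 0.56. Aldara replicate 3 was also the library with the highest sum of macrophage markers, 9606 CPM. Aldara replicate 1, with the lowest Cd14 of its group, had the lowest sum in Aldara, 3496 CPM. In Vehicle, Cd14 was highest in replicate 2 and the sum in replicate 3 (3054 CPM), and both were lowest in replicate 1 (sum 1478 CPM). The part of macrophages in the difference of Cd14 between the groups was not tested.

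Lcn2 had the largest fitted change of the 7 genes (ENSMUSG00000026822, chr2:32384633-32388252, minus strand, 5 merged exons). Its level was 568, 570.1, 524 and 519 CPM across Vehicle replicates 1 to 4, against 1082, 938, 995 and 801 CPM across Aldara replicates 1 to 4. The groups did not overlap, and Vehicle libraries again spanned only 1.1-fold. Lcn2 rose by 0.81 on the log2 scale (SE 0.11, 95% interval 0.56 to 1.05, edgeR adjusted p = 0.00268), from 545 ± 27.3 to 954 ± 118 CPM (SD, n = 4 each), but relative to the macrophage markers its log2 difference was -0.59 (adjusted p = 0.189). Its highest library, Aldara replicate 1, had the lowest sum of macrophage markers in Aldara, and its next highest, Aldara replicate 3, had the highest sum. In Aldara replicate 4, with the lowest Lcn2 of its group, that sum was 8720 CPM. Divided by the geometric mean of the 12 epithelial genes, Lcn2 stood at 0.599, 0.71, 0.72 and 0.585 in Vehicle and at 1.26, 1.24, 1.45 and 1.0 in Aldara, again without overlap. Scaling all genes to that epithelial list gave a log2 fold change of 0.92 for Lcn2 and 0.81 for Cd14, while the median of all tested genes moved to 0.12. The parts of macrophages and of epithelial cells in the difference of Lcn2 were not tested.

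Ltf binds iron in milk and in neutrophil granules (ENSMUSG00000032496, chr9:111019271-111042767, plus strand, 18 merged exons). Its level was 327, 493, 423 and 185 CPM across Vehicle replicates 1 to 4, against 607, 494, 476 and 333 CPM across Aldara replicates 1 to 4. The groups overlapped. Vehicle libraries spread 2.66-fold from replicate 4 to replicate 2, the widest range of any of the 7 genes in either group. The log2 fold change was 0.42 (SE 0.29, 95% interval -0.23 to 1.07, edgeR adjusted p = 0.412), an interval that includes both no difference and a change as large as that of Lcn2. With the replicate number as a block the log2 fold change was 0.48 and the adjusted p 0.086. Without Vehicle replicate 4 it was 0.20.

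Neutrophil transcripts were scarce beside Lcn2 and Ltf. Their 12 markers together reached 5.77 to 12.6 CPM in the Vehicle libraries and 19.7 to 58.3 CPM in the Aldara libraries, and most of this was Csf3r, the receptor for granulocyte colony-stimulating factor, at 5.16 to 11.9 and 17.4 to 55.9 CPM. Csf3r was the one marker of the list that was tested, and it rose by 2.10 on the log2 scale (edgeR adjusted p = 0.00886, and 0.0551 with no filter on low counts). Scaled to the macrophage markers, Csf3r had a log2 fold change of 0.51 and was not called. The other neutrophil markers of the list were at or near 0. Ly6g had 0 counts in all 8 libraries, and S100a8 had 10 counts in Vehicle and 46 in Aldara, summed over 4 libraries each. In the same order, S100a9 had 0 and 41, Camp had 2 and 11, Mpo had 3 and 14, and Prtn3 had 46 and 37. Lcn2 had at least 12106 counts in each library. The part of neutrophils in the levels of Lcn2 and Ltf was not tested.

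**Figure D2:**
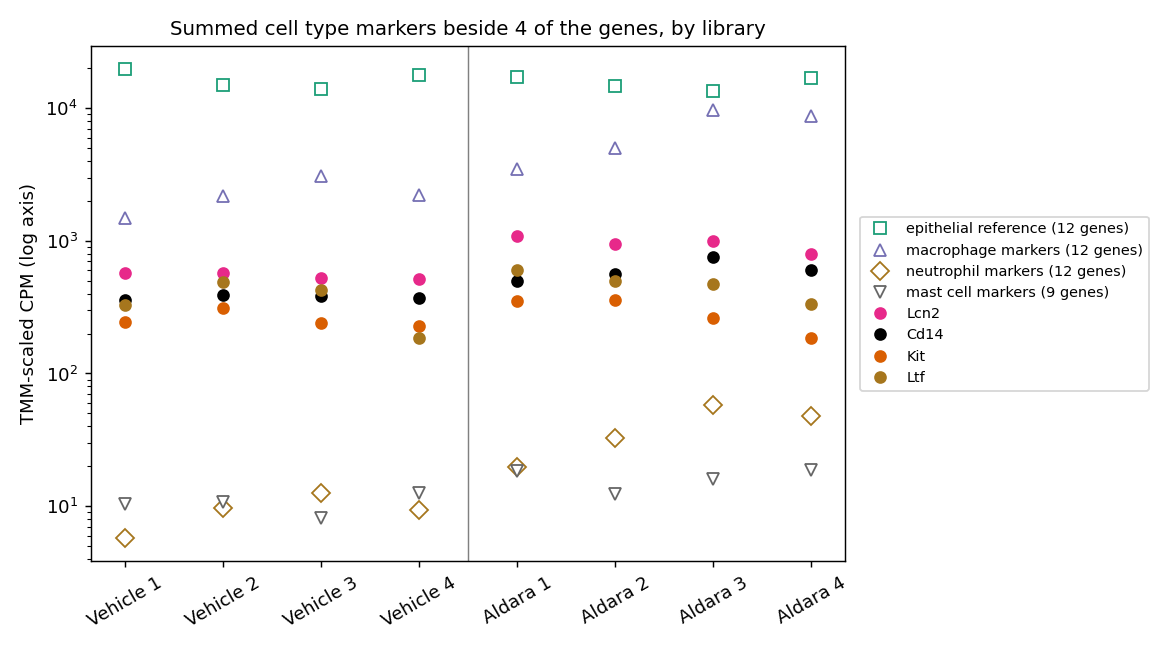
Summed levels of marker lists (open symbols) and levels of Lcn2, Cd14, Kit and Ltf (filled circles) in each library, in TMM-scaled CPM on a log axis. The epithelial sum stayed between 13520 and 19600 CPM in all 8 libraries, while the macrophage sum ranged from 1478 to 3054 CPM in Vehicle and from 3496 to 9606 CPM in Aldara, and the neutrophil sum stayed below Kit, Ltf, Cd14 and Lcn2 in every library.

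Per kilobase of exon, the genes fell into a similar order in both groups. In Vehicle, Cd14 (217 ± 8.74 CPM per kb) and Lcn2 (208 ± 10.4) stood highest and overlapped. Ltf (103.5 ± 38.6) and Aldh1a3 (69.0 ± 6.0) came next and overlapped each other, followed without overlap by Kit (28.8 ± 4.18), and then by Elf5 (17.8 ± 2.63) and Tspan8 (15.3 ± 1.36), which overlapped. In Aldara, Lcn2 (364 ± 44.9 CPM per kb) and Cd14 (349 ± 62.4) overlapped at the top, Ltf (138 ± 32.6) and Aldh1a3 (80.5 ± 6.22) were each separate from their neighbours, and Kit (32.4 ± 9.27), Elf5 (18.1 ± 4.43) and Tspan8 (17.2 ± 4.66) overlapped from one to the next. All of these are means ± SD over 4 libraries.

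**Figure D3:**
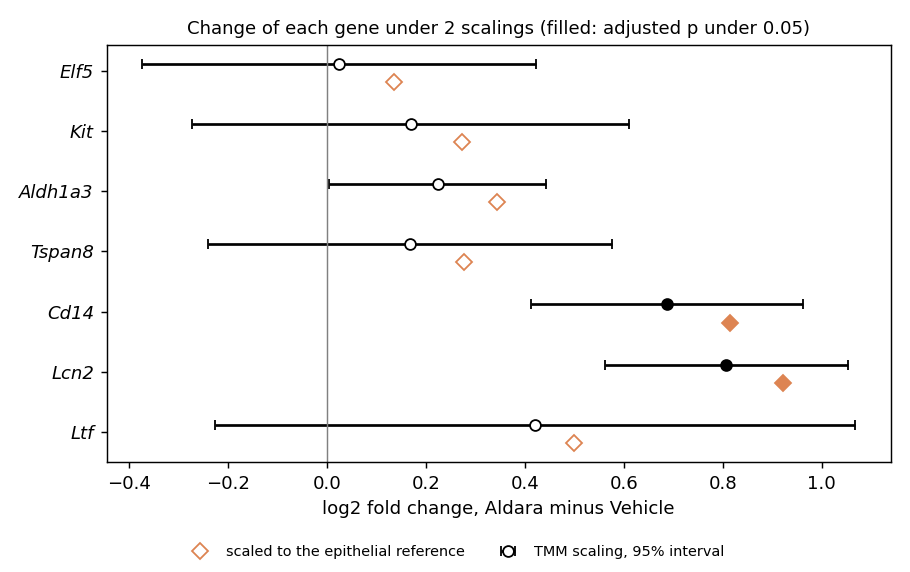
Fitted log2 fold change, Aldara minus Vehicle, of each gene (horizontal axis) under TMM scaling, with its 95% interval (circles), and under scaling to 12 epithelial genes (diamonds); filled symbols have an adjusted p under 0.05. Only Cd14 (0.69 and 0.81) and Lcn2 (0.81 and 0.92) are filled under both scalings shown; scaling to the macrophage markers, not drawn, turned all 7 values negative.

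The genes also varied from library to library within a group. Replicate 4 was the lowest library of both groups for 5 of the 7 genes, namely Elf5, Kit, Tspan8, Lcn2 and Ltf. Cd14 was lowest in replicate 1 and Aldh1a3 in replicate 3, again in both groups. Within the same replicate number, the log2 difference Aldara minus Vehicle was positive in all 4 numbers for Lcn2 (0.93, 0.72, 0.93 and 0.63), Cd14 (0.50, 0.53, 0.98 and 0.69), Aldh1a3 (0.085, 0.32, 0.25 and 0.25) and Ltf (0.89, 0.0034, 0.17 and 0.85). For Elf5, Kit and Tspan8 it was positive in numbers 1 to 3 and negative in number 4, at -0.24, -0.32 and -0.41. The spread was wider in Aldara than in Vehicle for 5 genes. The coefficient of variation went from 14.8% to 24.5% for Elf5, 14.5% to 28.6% for Kit, 8.87% to 27.1% for Tspan8, 4.03% to 17.9% for Cd14 and 5.0% to 12.4% for Lcn2.

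**Figure D4:**
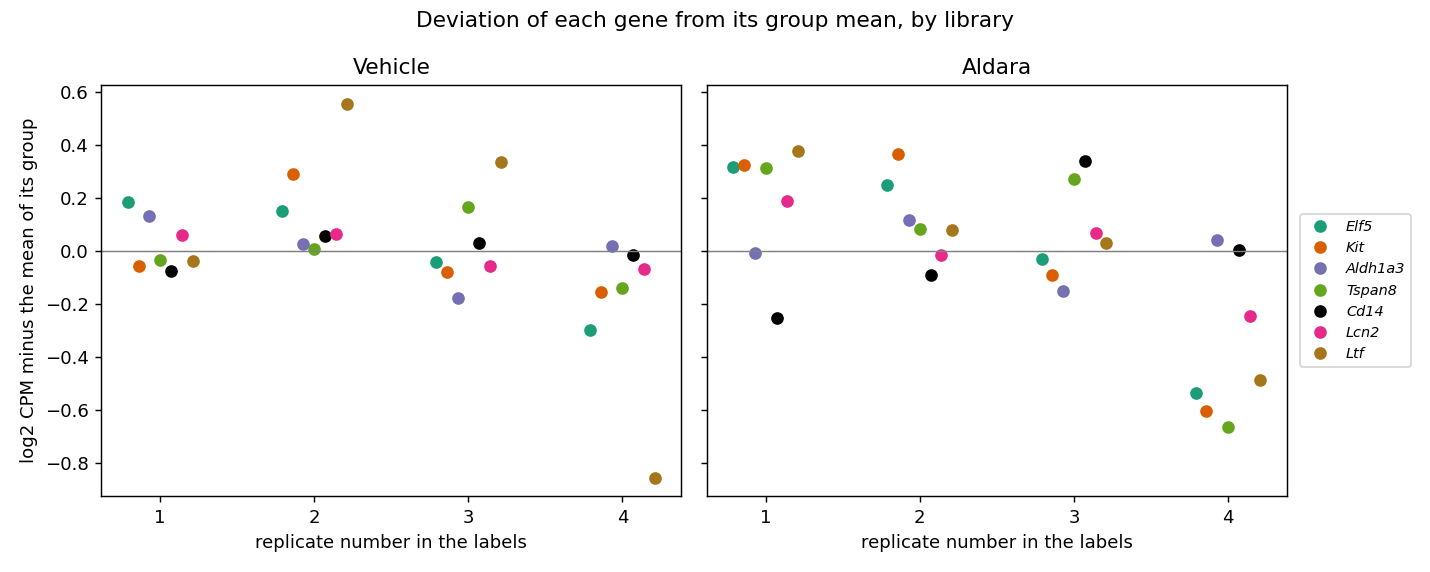
Log2 CPM of each gene minus the mean of its group (vertical axis) against the replicate number in the labels (horizontal axis), Vehicle on the left and Aldara on the right. Elf5, Kit, Tspan8, Lcn2 and Ltf have their lowest point at replicate 4 in both panels, whereas Cd14 has it at replicate 1 and Aldh1a3 at replicate 3.

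Ratios within a library do not depend on how libraries are scaled. Of the 21 pairs among the 7 genes, 4 had ratios that did not overlap between the groups, and each of these 4 set Lcn2 against a gene of the progenitor. They share the values of Lcn2, which differed by itself, and are not 4 separate results. How often ratios of other gene pairs fail to overlap was not computed. The Elf5 to Lcn2 ratio was 0.208, 0.202, 0.193 and 0.163 in Vehicle and 0.119, 0.131, 0.102 and 0.0894 in Aldara, a mean log2 difference of -0.80. The corresponding log2 differences were -0.67 for Kit, -0.58 for Aldh1a3 and -0.68 for Tspan8. Each gave p = 0.0286 in a two-sided exact permutation test, the smallest value that 4 against 4 libraries allow, and 0.15 after adjustment over the 21 pairs. So none of the ratios passed after adjustment. The Cd14 to Lcn2 ratio overlapped, at 0.627, 0.685, 0.731 and 0.715 in Vehicle and 0.464, 0.598, 0.759 and 0.747 in Aldara (exact permutation p = 0.6). The Lcn2 to Ltf ratio overlapped as well, with a mean log2 difference of 0.32 (exact permutation p = 0.314).

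The genes with the most similar profiles were found by the root mean square difference of centred log2 CPM over the 8 libraries, among 10945 named genes with at least 5 CPM on average. For Lcn2 they were Bok (0.0832), Ogfrl1 (0.0947) and Cpe (0.112), and for Cd14 they included Itm2b (0.0654) and Idua (0.0754). For Elf5 they were Atp6v1b1 (0.043), Fads3 (0.0686) and Eva1c (0.079), and for Kit they were Mtss1l (0.0844), Map3k21 (0.105) and Trim46 (0.109). Elf5 was the gene at rank 7 for Kit (0.139), whereas Kit was at rank 51 for Elf5. For Aldh1a3 the nearest were Dusp16 (0.0335), Traf3 (0.0366) and Igf1r (0.038), and for Tspan8 they were Zc2hc1a (0.103), Gng7 (0.103) and Cryab (0.109). Ltf had the least close neighbours, Scube3 (0.199), Ncald (0.2) and Ttc30b (0.224). Cd14 stood at rank 98 for Lcn2 (0.222). These are descriptions over 8 libraries that share the group difference and the depth of each library.

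The directions of the gene lists that follow are relative to all genes too. Scaled to the macrophage markers, every named list gene that had been called lower was still called lower. Of those called higher, Tlr1 and Saa3 were still called, Lyn, Cd180, Tlr6, Ly86, Cd37, Cd53 and Slc11a1 stayed positive without a call, and the others followed turned negative. Muc1 and Muc15 were not followed one by one under the alternatives.

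Another 22 genes were followed in a list chosen to accompany luminal progenitors, without a check that each is particular to these cells. Of the 22 genes, edgeR called 0 higher and 2 lower, with a median log2 fold change of 0.0046. At an unadjusted p under 0.05, for which no share over all tested genes was computed, 7 were higher and 5 lower. DESeq2 called 1 higher and 3 lower. Cyp24a1, the enzyme that breaks down active vitamin D, fell from 11.9 ± 3.11 to 4.80 ± 1.05 CPM (log2 -1.31, SE 0.22, edgeR adjusted p = 0.00558). Id4, an inhibitor of basic helix-loop-helix factors, fell from 27.1 ± 6.10 to 13.6 ± 2.87 CPM (log2 -0.98, adjusted p = 0.00923). The ETS factor Ehf was at 96.9 ± 3.56 and 133 ± 34.3 CPM (adjusted p = 0.0957), the milk-fat globule protein Mfge8 at 960 ± 146 and 1344 ± 341 CPM (adjusted p = 0.117) and Sox9 at 489.5 ± 62.9 and 365 ± 62.7 CPM (adjusted p = 0.0781). None of these 3 passed. With the replicate number as a block 5 genes were called higher and 5 lower, and under the epithelial scaling 3 were called higher and 2 lower. Without Vehicle replicate 3, 4 were called lower. Higher calls numbered 1 without Vehicle replicate 2, 2 without Aldara replicate 4 and 2 with no filter on low counts.

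Prolactin acts through Prlr, Jak2 and Stat5 to drive alveolar differentiation. Of 8 genes of this axis edgeR called 0 higher and 3 lower, with a median log2 fold change of -0.34, and 0 and 5 reached an unadjusted p under 0.05. DESeq2 called 0 higher and 4 lower. Stat5a was 479, 316, 216 and 295 CPM across Vehicle replicates 1 to 4, against 125, 128, 99.1 and 134 CPM across Aldara replicates 1 to 4, with every Aldara library below every Vehicle library. It fell by 1.43 on the log2 scale (SE 0.22, edgeR adjusted p = 0.00507). Socs2, a feedback inhibitor induced by Stat5, fell by 0.70 (adjusted p = 0.00574), and Stat5b fell by 0.42 (adjusted p = 0.0293). Cish, also in the list, was at 34.6 ± 5.71 and 33.6 ± 4.87 CPM and did not pass (adjusted p = 0.889). The call of Stat5b was lost under the epithelial scaling and in 5 of the 8 fits that left out 1 library (Vehicle replicate 1 or 2, Aldara replicate 2, 3 or 4). The receptor Prlr was at 2500 ± 170 CPM in Vehicle against 1962 ± 274 CPM in Aldara, and its groups did not overlap, but it did not pass (adjusted p = 0.100).

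Among 13 genes that act with Kit, edgeR, DESeq2 and limma voom each called 5 higher and 0 lower, with a median of 0.36, and 8 and 0 reached an unadjusted p under 0.05. The adaptor Sh2b3 rose by 0.88 on the log2 scale (edgeR adjusted p = 0.00478), the Src-family kinase Lyn by 1.66 (adjusted p = 0.00591), the adaptor Gab2 by 0.64 (adjusted p = 0.00902) and the phosphatase Ptpn6 by 1.30 (adjusted p = 0.0102, and 0.0591 with no filter on low counts). The fifth was the adaptor Grb2, at 0.53 (adjusted p = 0.0294), whose call was lost under the epithelial scaling and in 5 of 8 fits without 1 library (Vehicle replicate 1, 2 or 4, Aldara replicate 3 or 4). The ligand Kitl was at 161 ± 28.6 and 146 ± 23.5 CPM (adjusted p = 0.624). Lyn and Ptpn6 are broadly used in leukocytes, and the macrophage markers were higher in the same libraries. Their part in this count was not tested.

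Of the retinoic acid genes beside Aldh1a3, 13 of 16 were tested, 1 was called higher and 1 lower, and the median was -0.14. The receptor Rara rose by 0.36 (edgeR adjusted p = 0.0307) and the retinol carrier Rbp4 fell by 1.03 (adjusted p = 0.0282), from 3.12 ± 0.83 to 1.54 ± 0.31 CPM. Neither call was stable. Rara lost it when 1 of Vehicle replicates 1, 3 and 4 or of Aldara replicates 3 and 4 was left out, and Rbp4 when 1 of Vehicle replicates 1, 3 and 4 or of Aldara replicates 1, 2 and 4 was, and under the epithelial scaling. With the replicate block 3 genes of the list were called lower.

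Cd14 works with the Toll-like receptors that recognise bacterial lipids. Of 13 genes of this machinery edgeR called 8 higher and 0 lower, with a median of 0.62, and 10 and 0 reached an unadjusted p under 0.05. DESeq2 called 9 higher and limma voom 7, and both called 0 lower. Tlr1, which pairs with Tlr2, rose by 2.72 on the log2 scale (4.31 ± 0.63 to 28.6 ± 13.6 CPM, edgeR adjusted p = 0.00318). The Tlr4 homologue Cd180 rose by 1.96 (adjusted p = 0.00728), its partner Ly86 by 2.05 (adjusted p = 0.0110) and Tlr6 by 1.63 (adjusted p = 0.00918). The call of Ly86 was lost under the epithelial scaling and with no filter on low counts. The receptor Tlr4 itself was 35.6 ± 1.54 and 54.8 ± 12.7 CPM (adjusted p = 0.0183). Leaving out replicate 2 of either group ended this call. The Tlr4 partner Ly96 (adjusted p = 0.0574), Lbp, which delivers lipopolysaccharide to Cd14 (0.0713), and the adaptor Myd88 (0.665) did not pass. Without Vehicle replicate 2, 4 genes of the list were called higher, and without Aldara replicate 4, 5 were. These receptors are expressed by macrophages, whose markers were higher in the same libraries, and that part was not tested.

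Of 18 tetraspanins other than Tspan8, 3 were called higher and 3 lower, with a median of -0.12. Cd37 and Cd53, tetraspanins of leukocytes, rose by 1.97 (edgeR adjusted p = 0.00666) and 1.79 (adjusted p = 0.0104), and Cd81 rose by 0.41 (adjusted p = 0.0221). Cd9 fell by 0.72, from 693 ± 72.3 to 422 ± 42.6 CPM (adjusted p = 0.00476). Tspan9 and Tspan13 were called lower too, at -0.69 and -0.96. The count of lower genes fell to 1 when 1 of Vehicle replicates 2 and 4 or of Aldara replicates 2, 3 and 4 was left out, and with no filter on low counts. The call of Cd53 was lost under the epithelial scaling and with no filter, and that of Cd81 when Vehicle replicate 4 or 1 of Aldara replicates 3 and 4 was left out.

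Of 13 genes for receptors of Lcn2 and Ltf and for iron handling, 9 were tested, edgeR, DESeq2 and limma voom each called 4 higher and 0 lower, and the median was 0.32. At an unadjusted p under 0.05, 5 were higher and 0 lower. The phagosomal metal transporter Slc11a1 rose by 2.29 (edgeR adjusted p = 0.00525), the ferritin light chain Ftl1 by 1.29 (adjusted p = 0.00771), the endocytic receptor Lrp1 by 0.93 (adjusted p = 0.00981) and the iron importer Slc11a2 by 0.86 (adjusted p = 0.0103). Slc22a17, a receptor for Lcn2, was at 51.5 ± 5.28 and 52.2 ± 10.9 CPM (adjusted p = 0.948). Transferrin (Trf), the relative of Ltf that the mammary gland also makes, was at 891 ± 187 and 1091 ± 140.0 CPM (adjusted p = 0.273). Slc11a1 is a gene of phagocytes, and the macrophage markers were higher in the same libraries, whose part was not tested.

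A list of 30 other defence genes of secretory epithelium had 28 in the table and 23 tested, of which 7 were called higher and 2 lower, with a median of 0.068. Saa3, an acute-phase serum amyloid A, was 0.141, 0.685, 0.621 and 0.257 CPM across Vehicle replicates 1 to 4, against 46.3, 29.6, 104 and 32.0 CPM across Aldara replicates 1 to 4, and its log2 fold change was 6.92 (SE 0.59, edgeR adjusted p = 0.000853). Xanthine dehydrogenase (Xdh), an enzyme of the milk fat globule, rose by 0.66 (adjusted p = 0.0108). The mucins Muc1 (log2 0.70, adjusted p = 0.0319) and Muc15 (log2 0.83, adjusted p = 0.0356) were called higher too, and both overlapped between the groups. The beta-defensin Defb1 fell by 3.28 (adjusted p = 0.0102), from 25.4 ± 13.9 to 2.67 ± 1.82 CPM, and the protease inhibitor-like Wfdc2 fell by 1.09 (adjusted p = 0.0121), from 632 ± 188 to 297 ± 68.2 CPM. The adjusted p of Defb1 was 0.0576 with no filter on low counts. The count of higher genes was sensitive to single libraries: it lay between 2 and 4 when any 1 library other than Aldara replicate 4 was left out, and was 4 with no filter. One of the higher genes, Lyz2, is also in the list of macrophage markers, and Saa3, C3 and Cfb, also among them, are known from macrophages as well as from epithelium. The macrophage markers were higher in the same libraries (7 of 12 called, median 1.48), and their part in this count was not tested.

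**Figure D5:**
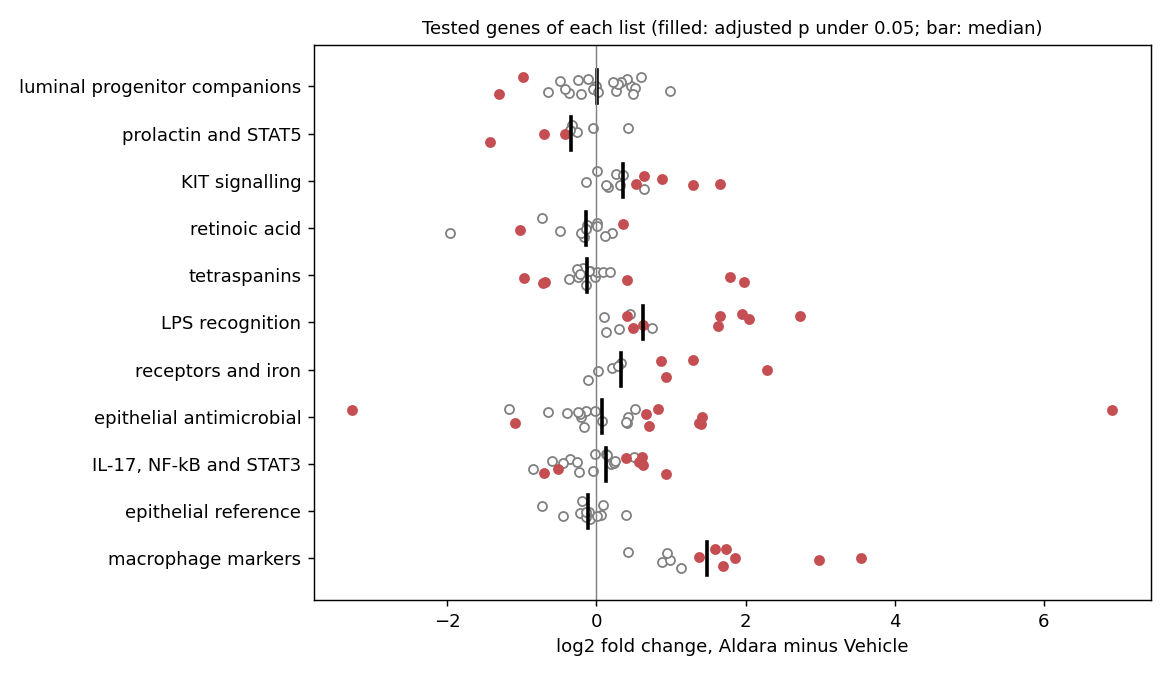
Log2 fold change of every tested gene of each list (horizontal axis, Aldara minus Vehicle), 1 row per list, with genes past the adjusted p of 0.05 filled. The progenitor companions centre on 0, with a median of 0.0046, while the genes of lipopolysaccharide recognition have a median of 0.62 and those of the prolactin axis a median of -0.34; values are relative to all genes, whose median is 0.0058 and turns to -1.42 under scaling to the macrophage markers.

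Lcn2 is a known target of interleukin 17, NF-kB and C/EBP signals in epithelium. Of 24 genes of these responses 21 were tested, 5 were called higher and 2 lower, and the median was 0.12. At an unadjusted p under 0.05, 7 were higher and 5 lower. The NF-kB subunits Relb and Nfkb2 rose by 0.63 (edgeR adjusted p = 0.00393) and 0.57 (adjusted p = 0.00536), and the ribonuclease Zc3h12a by 0.62 (adjusted p = 0.0081). The other 2 higher genes were the subunits Rel, at 0.93, and Nfkb1, at 0.39. Socs3, an inhibitor of Stat3 signalling, fell by 0.71 (adjusted p = 0.0169, and 0.0518 without Vehicle replicate 2), and the interleukin 17 receptor adaptor Traf3ip2 was the other lower gene, at -0.52. Nfkbiz (adjusted p = 0.520) and Stat3 (adjusted p = 0.122) did not pass. Among the tested cytokine genes, Cxcl2 (-0.85), Il6 (-0.60) and Cxcl1 (-0.45) were lower on the log2 scale. Tnf (0.50) and Il1b (0.19) were higher, and none of these cytokine genes passed (edgeR adjusted p from 0.0576 to 0.763). The count of higher genes was 3 when Vehicle replicate 2 or 1 of Aldara replicates 3 and 4 was left out. That of lower genes was 0 without Vehicle replicate 2, 1 when 1 of Vehicle replicates 1 and 4 or of Aldara replicates 2, 3 and 4 was left out and under the epithelial scaling, and 4 with the replicate block. Leukocytes also express the NF-kB subunits and Zc3h12a. The macrophage markers were higher in the same libraries (7 of 12 called, median 1.48), and their part was not tested.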

How the data were processed

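Counts of reads per gene, whole numbers and not normalised, were deposited by the authors for 8 libraries. The tools listed for mm10, per the submitters' processing notes, are HISAT2 (2.0.5), DESeq2 and featureCounts (1.5.0-p3), and their settings are not given in the sources here. Per the labels' protocols, RNA was poly-A enriched and amplified with a SMARTer kit that does not mark strand, so antisense and overlapping genes cannot be told apart. Amplified reads carry no molecular identifiers, so counting error understates the true error. Ensembl identifiers were matched to GENCODE M21, which named 91.8% of rows, and unnamed rows held 0.71% to 1.29% of counts. Coordinates and exon lengths come from it.

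Deposited counts were tested in edgeR 4.0.16 (R 4.3.3; filterByExpr, TMM, robust quasi-likelihood, group only). Intervals are 95% and SEs come from the F statistic. The procedure was tested on simulated data. Alternatives used DESeq2 1.42.0, limma 3.58.1, other scalings, no filter, a replicate block and each library left out. The 7 genes and all lists were chosen with earlier results of these data known. Named are the 7 genes, up to 4 called genes of each list by smallest p and the 3 nearest profiles of each gene, of which 1 is not reported here. Genes named without a call, Grb2, Tlr4, Hdc, Csf3r, Lyz2, C3, Cfb, Muc1, Muc15, Tspan9, Tspan13, Rel, Nfkb1, Traf3ip2, Areg, Pgr, Greb1 and Wnt4 were chosen after their values were seen. Same-numbered libraries of the 2 groups deviated together (correlations across genes of 0.228, 0.108, 0.167 and 0.218), a pairing seen in the data and not stated in the labels. Pairing by number entered only the alternative fit with a replicate block and the differences within a number. The main fit and the permutation tests were unpaired.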

Additional observations from a re-analysis of the deposited data

How the results depend on the processing

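Scaling to the macrophage markers, which called 14870 genes against 1818, reversed all 7 genes, to -1.33 for Elf5, -1.15 for Kit, -1.22 for Aldh1a3, -0.82 for Cd14, -1.18 for Tspan8, -0.59 for Lcn2 and -0.89 for Ltf. It also reversed Sh2b3 (-0.67), Gab2 (-0.86), Ptpn6 (-0.32), Grb2 (-0.99), Rara (-1.11), Tlr4 (-0.90), Cd81 (-1.07), Ftl1 (-0.28), Lrp1 (-0.64), Slc11a2 (-0.70), Xdh (-0.79), Cfb (-0.24), C3 (-0.0276), Lyz2 (-0.17), Relb (-0.84), Nfkb2 (-0.88), Zc3h12a (-0.88), Rel (-0.66), Nfkb1 (-1.07) and Hdc (-0.56). By construction it sets macrophage genes to no change on average. Under every other alternative run, Lcn2 and Cd14 stayed higher with adjusted p-values up to 0.0117 and 0.0267, and the other 5 genes were not called. Elf5 was also reversed by upper-quartile factors (-0.025), limma voom (-0.0058) and the replicate block (-0.00013); the cause was not tested. With 1 library left out, the log2 fold change ranged from -0.081 to 0.15 for Elf5, 0.04 to 0.31 for Kit, 0.17 to 0.27 for Aldh1a3, 0.56 to 0.77 for Cd14, 0.07 to 0.32 for Tspan8, 0.74 to 0.86 for Lcn2 and 0.20 to 0.61 for Ltf, and the genes called from 981 (without Aldara replicate 3) to 2042 (without Aldara replicate 1). They numbered 1118 and 1111 without Vehicle replicates 1 and 2, and 1182 and 1070 without Aldara replicates 2 and 4. The replicate block (pairing by number) called 2576 genes and changed no call among the 7. Of all calls, 64.4% were higher, against 49.7% with upper-quartile factors, 77.8% under the epithelial scaling and 0.43% under the macrophage scaling. With 4 pools a group, fold changes as small as those of Elf5, Kit and Tspan8 lay within the spread.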

Other observations

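Markers of the other compartments of the gland and of its stroma were followed as well. Of 9 tested markers of hormone-sensing luminal cells, 4 were called lower by edgeR and 0 higher (6 and 0 at an unadjusted p under 0.05), with a median log2 fold change of -0.58, and their summed level was 2742 to 3637 CPM in Vehicle and 1639 to 1897 CPM in Aldara. Areg, the growth factor that relays oestrogen signals, fell from 836 ± 206 to 167 ± 96.8 CPM (SD, n = 4 each, log2 -2.32, edgeR adjusted p = 0.00623), and the progesterone receptor Pgr fell from 482 ± 186 to 130.5 ± 52.5 CPM (log2 -1.88, adjusted p = 0.0119, and 0.0628 with no filter on low counts). Greb1, at 49.9 CPM in Vehicle replicate 1 and 2.91 to 12.5 CPM in the other Vehicle libraries, and Wnt4 were the other 2, and 2 genes were called under the epithelial scaling, with limma voom, with no filter, or without Aldara replicate 2, 3 or 4. The oestrogen receptor Esr1 was at 232 ± 32.5 and 242 ± 17.5 CPM (adjusted p = 0.784). Of 9 basal and myoepithelial markers, 0 were called either way by edgeR and 1 was lower at an unadjusted p under 0.05, with summed levels of 1193 to 1640 CPM in Vehicle and 888 to 1452 CPM in Aldara, and DESeq2 and the replicate block each called 1 lower. Of 6 fibroblast markers, 5 were called lower by edgeR and 0 higher, with a median of -1.64. Their summed level was 562 CPM in Vehicle replicate 1, 206 to 244 CPM in the other Vehicle libraries and 65.3 to 137.5 CPM in Aldara. The count was 4 without Vehicle replicate 1. It was 3 without Vehicle replicate 2, Aldara replicate 1 or Aldara replicate 4 and under the epithelial scaling, and 2 without Aldara replicate 2 or 3 and with no filter. The part of stromal cells in the hormone-sensing markers was not tested, nor was any difference between these lists and the progenitor genes.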
